A study of Homo sapiens with 22 samples.

Results

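The untreated cultures of 8 established B-cell lymphoma cell lines were compared, 3 from Burkitt lymphoma (BL; Ramos, Raji and BL41) against 5 from follicular lymphoma (FL; SC-1, K422 and ROS-50) and from diffuse large B-cell lymphoma of the germinal center kind (GCB DLBCL; Sudhl4 and Sudhl6). They are 8 of the 22 arrays of the series, which also holds the same lines after aza and TSA, inhibitors of DNA methyltransferases and of histone deacetylases, and 3 lines of the activated B-cell-like type (ABC). The members were chosen by line and by the label for no treatment, not by a measured value, and the lymphoma type of each line was taken from the study's methods. All 8 lines grew in RPMI medium with fetal calf serum and received neither drug. Each line is a single culture measured once on a 1-colour Applied Biosystems Human Genome Survey Microarray, so the lines are the replicates and each stands for the tumour of 1 person. The array carries 32878 elements, and 15461 genes could be named on 17073 of them. Values are log2 signals after quantile normalization, with a median of 10.18 on every array, and 1 log2 unit is a 2-fold difference. The median raw signal was between 1078 and 1482 in the BL lines and between 717 and 1582 in the FL/GCB lines.

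Burkitt lymphoma, follicular lymphoma and GCB DLBCL all arise from B cells of the germinal center, where B cells divide quickly and mutate their antibody genes under the repressor BCL6. Burkitt lymphoma is defined by a translocation that places MYC, a transcription factor that drives growth, under an immunoglobulin enhancer, and its tumours often carry mutations of ID3, TCF3 or CCND3. Follicular lymphoma typically carries a translocation of BCL2, an inhibitor of apoptosis, and GCB DLBCL shares this lesion in part of the cases. Patient BL is known for low BCL2, low NF-kB target genes and low HLA class I next to other germinal center lymphomas.

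In the comparison of BL with FL/GCB lines, 0 elements were higher and 0 were lower in BL at an adjusted p under 0.05 in limma (0% in each direction), and the smallest adjusted p was 0.115, for CR2 and LY75. At an unadjusted p under 0.05, limma gave 1487 elements, of which 789 were higher (2.4%) and 698 lower (2.12%) in BL. The number expected at that threshold by chance is 1644, so the 1487 elements are not an excess. No gene below is therefore called changed, and its values are a description of these lines. All 3 BL lines lay above all 5 FL/GCB lines for 562 elements (1.71%) and below them for 485 elements (1.48%). The median standard error of a difference was 0.47 and the 95% confidence interval reached a median of 1.04 to either side, so at the typical element a 2-fold difference was not detectable with these lines. Mean differences over 2-fold were frequent, with 1509 elements higher and 1477 lower in BL, but the groups did not overlap in only 276 and 232 of them. The median SD was 0.50 within the BL lines and 0.65 within the FL/GCB lines.

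**Figure D1:**
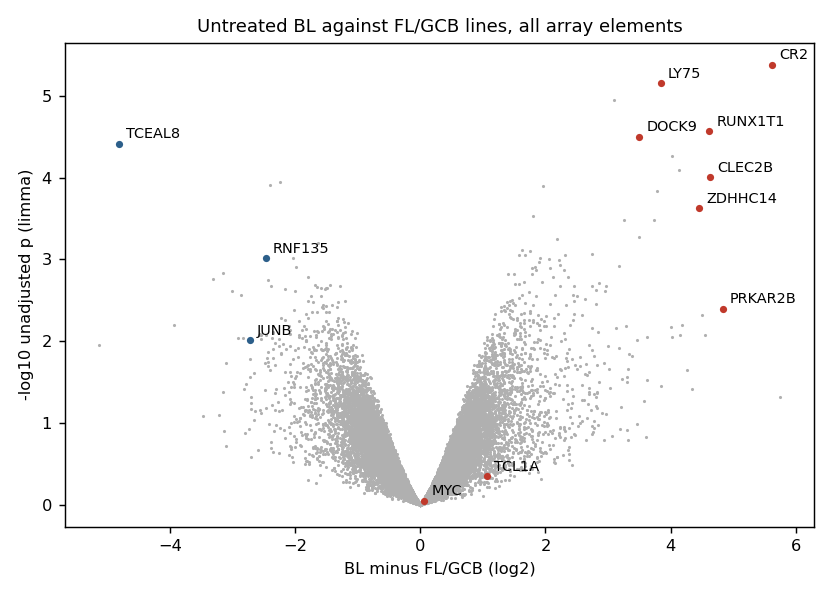
Each grey point is 1 of 32878 array elements, with the mean of the 3 BL lines minus the mean of the 5 FL/GCB lines (log2) on the horizontal axis and −log10 of limma's unadjusted p on the vertical axis; some of the named genes are coloured, red for higher and blue for lower in BL. CR2, LY75 and TCEAL8 lie at the top, MYC lies at the bottom centre, and no element passed the adjusted threshold.

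The genes described first are the 12 in each direction with the largest mean difference among genes with an unadjusted p under 0.01 in limma, groups that did not overlap and a level above the array median in every line of the higher group, and 38 genes were higher and 16 lower in BL under these conditions. Genes with overlapping groups could differ by more in the mean, as PRKAR2B and CYB5A did. Several of the genes named as high in BL encode surface receptors. CR2 (complement receptor 2, CD21, the B-cell receptor for complement fragments and for Epstein-Barr virus) had 13.15 in Ramos, 15.95 in Raji and 13.78 in BL41, against 7.69 in SC-1, 9.06 in K422, 8.19 in ROS-50, 9.18 in Sudhl4 and 9.22 in Sudhl6. All 5 FL/GCB lines were below the array median, and the lowest BL line was far above the highest of them. The difference was 5.62 ± 0.64 (log2, SE; 95% confidence interval 4.20 to 7.04), 49.3-fold, with an adjusted p of 0.115 in limma. CR2 passed the threshold under 3 alternatives, with a limma adjusted p of 0.0444 under median scaling, 0.0283 without normalization and 0.0159 with all 11 untreated arrays in the fit. LY75 (DEC-205, an endocytic receptor) had 12.93 in Ramos, 13.13 in Raji and 11.40 in BL41, against 8.26 in SC-1, 8.26 in K422, 8.56 in ROS-50, 9.06 in Sudhl4 and 9.07 in Sudhl6. It too was below the array median in all 5 FL/GCB lines, and the difference was 3.84 ± 0.46 (3 against 5 lines; limma adjusted p = 0.115). CLEC2B, a C-type lectin that binds a receptor of natural killer cells, had 13.51 in Ramos, 14.80 in Raji and 14.31 in BL41, against 11.74 in SC-1 and 7.72 to 9.86 in the other 4 lines, so SC-1 came nearest to BL. CXADR, the receptor of coxsackieviruses and adenoviruses, had 11.84, 12.29 and 11.35 in the BL lines, against 11.19 in SC-1 and 8.19 to 9.89 in the others. Its second element differed by 0.90 with overlapping groups.

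For CR2 and LY75, the promoters are shown because a drug against DNA methylation is the treatment of the series and because these genes had the smallest p-values of the comparison. A promoter here is the window of 250 bases before to 50 bases after the start of the gene in RefSeq (GRCh38.p14), in which the CG dinucleotides, the sites of DNA methylation, are in capitals.
CR2: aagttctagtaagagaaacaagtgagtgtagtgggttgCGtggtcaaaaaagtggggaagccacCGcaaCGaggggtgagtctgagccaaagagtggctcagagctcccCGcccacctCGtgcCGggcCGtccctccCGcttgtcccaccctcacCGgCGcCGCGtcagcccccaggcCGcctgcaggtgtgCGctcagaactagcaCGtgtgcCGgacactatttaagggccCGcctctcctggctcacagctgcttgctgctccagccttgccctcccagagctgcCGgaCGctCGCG
LY75: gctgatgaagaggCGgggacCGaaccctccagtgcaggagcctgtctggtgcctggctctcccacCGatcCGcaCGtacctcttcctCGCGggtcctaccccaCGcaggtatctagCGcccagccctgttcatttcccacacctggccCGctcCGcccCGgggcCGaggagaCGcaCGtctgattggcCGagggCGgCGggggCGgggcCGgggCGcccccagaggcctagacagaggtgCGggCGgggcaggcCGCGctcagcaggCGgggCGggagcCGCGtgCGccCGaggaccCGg
The CR2 window (chr1:207454078-207454377, + strand) holds 21 CG dinucleotides, and 39.5% of the 27305 promoters of the table hold as many or more. The LY75 window (chr2:159904707-159905006, − strand) holds 32, which 18.6% reach. Methylation of these windows was not analysed here.

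The other genes named as high in BL include regulators and enzymes. RUNX1T1, a transcriptional corepressor known from its fusion to RUNX1 in myeloid leukaemia, had 11.45 in Ramos, 13.94 in Raji and 13.98 in BL41, against 8.48 in SC-1, 9.67 in K422, 7.58 in ROS-50, 8.37 in Sudhl4 and 8.41 in Sudhl6. The 5 FL/GCB lines were again below the array median, and the difference was 4.62 ± 0.65 (limma adjusted p = 0.208). DOCK9, an activator of the GTPase CDC42, was even within BL at 13.16 in Ramos, 12.85 in Raji and 12.93 in BL41, against 8.44 in SC-1, 10.38 in K422, 8.88 in ROS-50, 9.32 in Sudhl4 and 10.37 in Sudhl6. Its difference of 3.50 ± 0.50 (limma adjusted p = 0.208) was not seen at its second, dimmer element, where BL minus FL/GCB was −0.04. ZDHHC14, a palmitoyltransferase, had 13.37, 15.25 and 11.65 in Ramos, Raji and BL41, against 7.69 to 10.47 in the FL/GCB lines. LGMN, the lysosomal protease legumain, had 14.61, 15.31 and 15.99 in those BL lines, against 14.16 in SC-1, 11.55 in K422, 8.90 in ROS-50, 13.21 in Sudhl4 and 8.67 in Sudhl6. LGMN was thus high in every BL line and ranged widely among the FL/GCB lines. The remaining genes of these 12 were GSTO2 (a glutathione transferase), ATP5MK (a small subunit of the mitochondrial ATP synthase), FAM241A and ARL15 (a small GTPase), with differences of 3.18, 2.85, 2.80 and 2.74. For ARL15 the nearest lines were close, with 11.94 in BL41 and 11.62 in ROS-50, as they were for LGMN and CXADR.

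Fewer genes met these conditions in the other direction, 16 against 38. The conditions were not equal, as 5 FL/GCB lines had to be above the array median here and 3 BL lines there. By non-overlap alone, 266 of 15461 genes were higher (1.72%) and 234 lower (1.51%) in BL. TCEAL8, of a family of elongation factor A-like nuclear proteins, had 8.82 in Ramos, 8.12 in Raji and 8.24 in BL41, against 10.96 in SC-1, 14.69 in K422, 13.71 in ROS-50, 13.53 in Sudhl4 and 13.19 in Sudhl6. All 3 BL lines were below the array median and all FL/GCB lines above it, SC-1 the least. The difference was −4.82 ± 0.70 (log2, SE; 95% confidence interval −6.39 to −3.26), 28.3-fold lower in BL, with an adjusted p of 0.211 in limma. Its promoter is shown as that of the gene with the largest negative difference under these conditions, in the same format.
TCEAL8: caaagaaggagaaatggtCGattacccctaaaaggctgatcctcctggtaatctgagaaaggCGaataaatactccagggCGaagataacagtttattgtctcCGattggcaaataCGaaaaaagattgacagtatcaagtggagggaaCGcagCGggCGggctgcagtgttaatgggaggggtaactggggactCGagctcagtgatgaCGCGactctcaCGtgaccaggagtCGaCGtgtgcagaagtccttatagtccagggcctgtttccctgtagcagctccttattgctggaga
This window (chrX:103255106-103255405, − strand) holds 14 CG dinucleotides, which 50.1% of promoters reach, and 14 is the median of all promoters.

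RNF135, a ubiquitin ligase that acts on the viral RNA sensor RIG-I, had 10.61 in Ramos, 9.96 in Raji and 10.34 in BL41, against 11.35 in SC-1, 13.30 in K422, 12.51 in ROS-50, 12.74 in Sudhl4 and 13.96 in Sudhl6, a difference of −2.47 ± 0.54 (limma adjusted p = 0.971). QDPR, which regenerates the cofactor tetrahydrobiopterin, had 12.80 in Ramos, 9.40 in Raji and 13.03 in BL41, against 13.44 to 14.91 in the FL/GCB lines. Raji was thus far below Ramos and BL41, which were nearer to the FL/GCB lines, and the difference was −2.46. The second element of QDPR, with −2.41, was lowest in Raji too and had overlapping groups. INCENP, a scaffold of the chromosomal passenger complex in mitosis, had 9.38, 9.08 and 9.89 in Ramos, Raji and BL41, against 12.19 in SC-1, 10.24 in K422, 11.03 in ROS-50, 10.96 in Sudhl4 and 13.22 in Sudhl6. LGALS1, the carbohydrate-binding protein galectin-1, had 10.71, 9.97 and 10.88 in the BL lines, against 11.12 to 13.20 in the FL/GCB lines. These INCENP and LGALS1 values did not overlap between groups, but the nearest lines were less than 0.5 log2 units apart. The same limit held for QDPR, B4GALT7, VGF, PPP1R16A and LRP3, with VGF at 11.60 in Raji and 11.67 in Sudhl6. NRSN2, with a difference of −2.17, had a second element at 0.58. The other genes of the 12 were KRTAP19-6 (a hair keratin-associated protein), B4GALT7 (a galactosyltransferase of proteoglycan synthesis), VGF (a neuropeptide precursor), PPP1R16A (a regulatory subunit of protein phosphatase 1), LRP3 and TMEM254, with differences from −1.94 to −1.32.

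**Figure D2:**
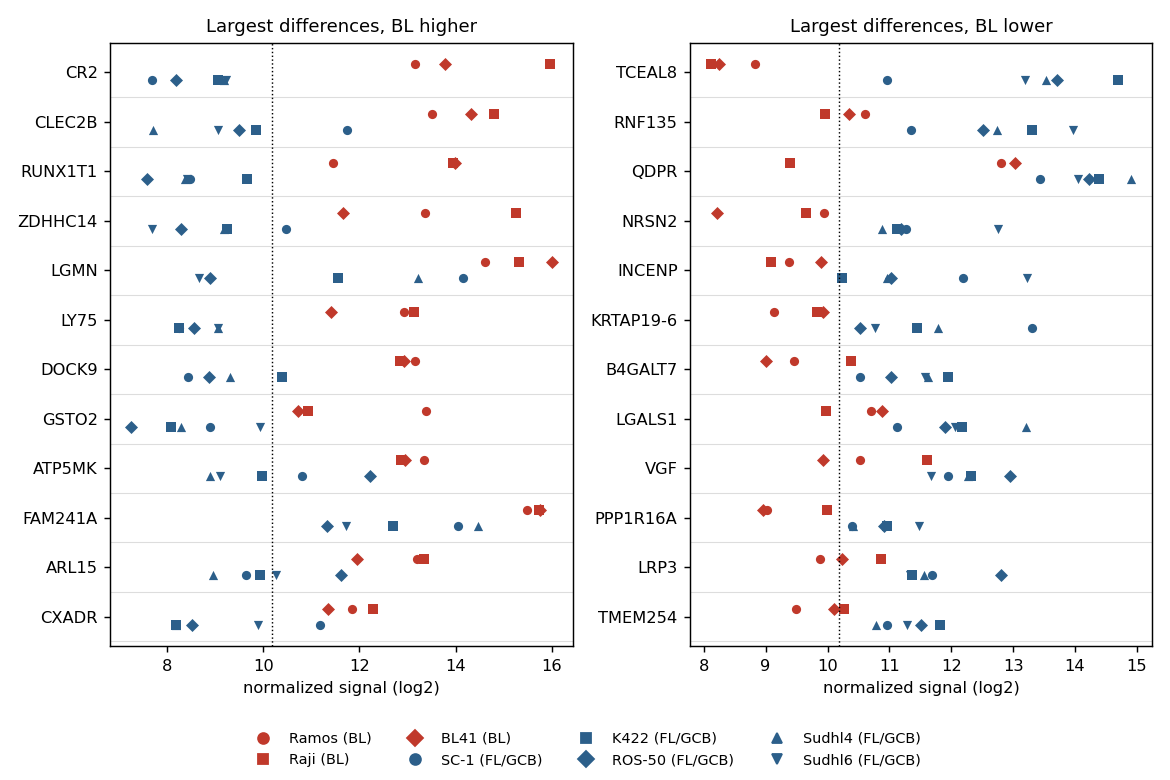
Normalized signal (log2, horizontal axis) of each line for the 12 genes with the largest positive (left) and the 12 with the largest negative difference (right) among non-overlapping genes; BL lines are red and above the FL/GCB lines, in blue, and the dotted line is the array median of 10.18. The gap between groups is wide for CR2, LY75 and TCEAL8 and narrow for several others, such as LGMN, CXADR, LGALS1, B4GALT7 and VGF.

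The promoter window was found for 17 of these 24 genes. The letters CACGTG, the E-box that MYC and its partner MAX bind, were searched on both strands of the 300 bases, where the motif reads the same, and were found in 7.43% of all promoters. They were in 2 of 8 genes higher in BL (CR2 and GSTO2) and in 3 of 9 lower in BL (TCEAL8, VGF and LRP3). A match is a description of the letters.

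MYC itself did not separate the groups. It had 18.40 in Ramos, 18.19 in Raji and 16.80 in BL41, against 17.43 in SC-1, 18.39 in K422, 17.50 in ROS-50, 17.86 in Sudhl4 and 17.49 in Sudhl6, far above the array median in every line. BL41 was the lowest of all 8 lines, and the difference was 0.06 with a 95% confidence interval of −0.93 to 1.05. ID3, an inhibitor of TCF3, averaged 13.67 ± 1.30 in BL and 13.23 ± 1.49 in FL/GCB lines (SD, n = 3 and 5). CCND3, the cyclin D3 of the cell cycle, averaged 15.28 ± 0.60 in BL and 14.63 ± 0.61 in FL/GCB lines. SMARCA4, the ATPase of a chromatin remodeling complex, averaged 16.90 ± 0.30 in BL and 16.43 ± 0.89 in FL/GCB lines. The groups overlapped in each, and the interval of the difference was −1.45 to 2.32 for ID3, −0.35 to 1.65 for CCND3 and −0.67 to 1.61 for SMARCA4. TCL1A, a coactivator of AKT that is high in germinal center tumours, had 17.56, 14.22 and 16.61 in Ramos, Raji and BL41, against 15.16 in SC-1, 10.51 in K422, 17.02 in ROS-50, 16.10 in Sudhl4 and 16.51 in Sudhl6. K422 stood apart from the other FL/GCB lines, and without it the difference of 1.07 was −0.07.

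BCL2 had a lower mean in BL at both of its elements, and the size of the difference depended on the element read. At the brighter element it had 11.52 in Ramos, 11.77 in Raji and 10.92 in BL41, against 11.76 to 12.43 in the FL/GCB lines, a difference of −0.68 with an interval of −1.45 to 0.09. At the other element it had 8.71 in Ramos, 8.34 in Raji and 11.00 in BL41, against 11.20 in SC-1, 11.67 in K422, 11.97 in ROS-50, 10.76 in Sudhl4 and 10.83 in Sudhl6, a difference of −1.94. The interval at this dimmer element was −3.27 to −0.60, with a limma adjusted p of 0.971. Ramos and Raji were below all FL/GCB lines there and BL41 was among them. BCL6 had a difference of −0.60 with an interval of −1.66 to 0.45, and MME, the germinal center surface peptidase CD10, one of 0.93 with an interval of −0.24 to 2.10. NFKBIA, the NF-kB inhibitor and itself an NF-kB target, was the 1 gene of the 14 measured in this group whose lines did not overlap. It had 15.44 in Ramos, 15.42 in Raji and 15.19 in BL41, against 14.61 in SC-1, 13.80 in K422, 14.61 in ROS-50, 14.30 in Sudhl4 and 14.51 in Sudhl6, and the difference was 0.98 with an interval of 0.23 to 1.73 and a limma adjusted p of 0.971. The share of genes so separated upward was 1.72% over all 15461 genes, and downward it was 1.51%. The surface molecules and the kinase of this group overlapped between lymphoma types, with intervals of −0.50 to 1.36 for B2M (the light chain of HLA class I), −1.18 to 1.07 for CD74 (the invariant chain of HLA class II), −1.46 to 1.17 for CD44 (a homing receptor) and −1.44 to 0.26 for SYK (the kinase of the B-cell receptor). MKI67, the proliferation marker Ki-67, averaged 12.77 ± 0.13 in BL and 12.70 ± 0.70 in FL/GCB lines (SD, n = 3 and 5). TCF3 was not analysed here.

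**Figure D3:**
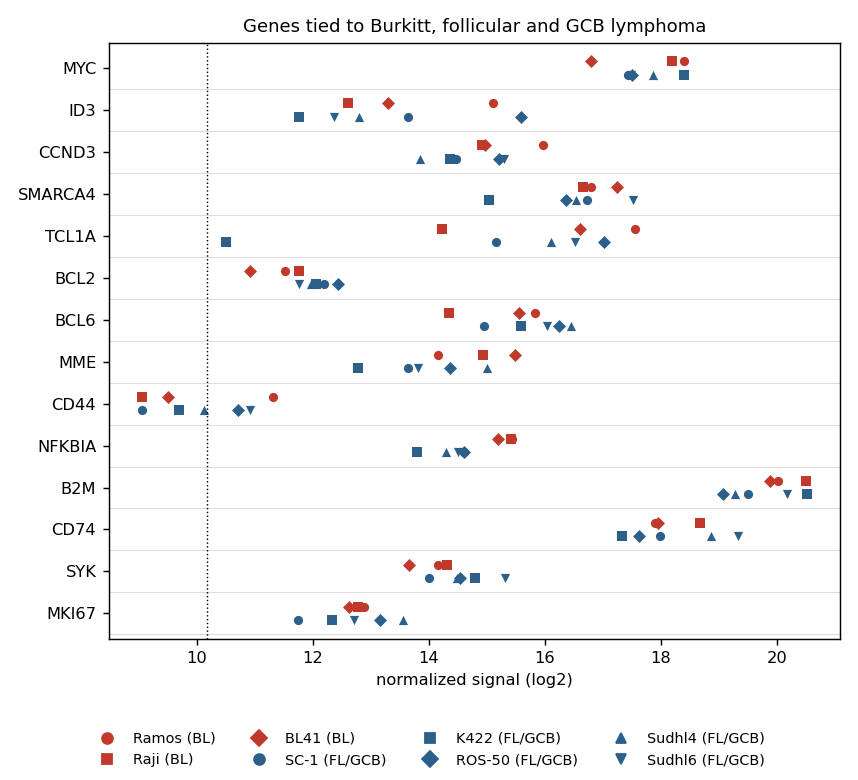
Normalized signal (log2, horizontal axis) of each line for 14 genes tied to these lymphomas, with BL lines in red above the FL/GCB lines in blue and the array median of 10.18 as a dotted line. The groups overlap for every gene shown except NFKBIA, and K422 lies far below the other lines for TCL1A.

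In 18 gene lists of lymphoma biology with 492 measured genes, 0 genes passed the adjusted threshold. The lines did not overlap for 9 genes above (1.83%) and 5 below (1.02%), next to 1.72% and 1.51% over all genes. At an unadjusted p under 0.05 in limma, 12 were higher and 12 lower in BL, next to 2.38% and 2.22% of all genes. These shares were close to those of all genes.

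MYC target genes had a median difference of −0.14, with 18 of 43 positive and 0 outside the overlap. EIF4EBP1, the translation repressor 4E-BP1, had 14.59 in Ramos, 8.75 in Raji and 14.31 in BL41, against 14.30 to 15.57 in the FL/GCB lines, so that Raji alone was low. FBL, the nucleolar methyltransferase fibrillarin, averaged 16.06 ± 0.46 in BL and 16.96 ± 0.62 in FL/GCB lines (SD, n = 3 and 5). In the MYC network (median 0.03, 18 genes), MAX, the partner of MYC, had 12.59, 10.91 and 11.66 in Ramos, Raji and BL41, against 11.45 in SC-1 and 13.75 to 14.25 in the other 4 lines. MAX in SC-1 was thus at the level of BL. Genes of DNA replication and mitosis had a median of −0.21, with 28 of 42 negative, and CDK2, the kinase of S phase entry, had 12.52, 11.52 and 12.66 in the BL lines, against 11.39 in SC-1 and 13.83 to 14.68 in the others. BUB1, a mitotic checkpoint kinase, was the gene of this list above all FL/GCB lines.

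Genes reported high in Burkitt lymphoma had a median of 0.22, with 15 of 24 positive and 0 outside the overlap. PRKAR2B, a regulatory subunit of protein kinase A, had 17.73 in Ramos, 16.11 in Raji and 17.61 in BL41, against 16.74 in SC-1, 10.34 in K422, 13.18 in ROS-50, 10.95 in Sudhl4 and 10.39 in Sudhl6. SC-1 was again at the BL level, and the difference of 4.83 had an interval of 1.92 to 7.74. CXCR4, a chemokine receptor of the germinal center dark zone that was chosen after its values were seen, had 18.54, 18.10 and 18.41 in the BL lines, against 18.82 in SC-1, 9.69 in K422, 16.10 in ROS-50, 16.93 in Sudhl4 and 16.34 in Sudhl6. In the ID3, TCF3 and cyclin D3 axis (median 0.04, 20 genes), ID1 had 15.24 in Ramos, 9.54 in Raji and 11.81 in BL41, against 8.60 to 12.06 in the FL/GCB lines.

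NF-kB target genes had a median of 0.25, with 26 of 41 positive and NFKBIA alone outside the overlap. JUNB, an AP-1 transcription factor, lay at the low end of this list with 9.13 in Ramos, 7.83 in Raji and 9.96 in BL41, against 9.10 in SC-1, 12.99 in K422, 12.83 in ROS-50, 12.38 in Sudhl4 and 11.21 in Sudhl6. It shared the pattern in which SC-1 was at the BL level, and its difference was −2.73 with an interval of −4.64 to −0.81. In the BCL2 family (median 0.15, 19 genes), BAX, which opens the mitochondrial membrane in apoptosis, had 13.16, 13.07 and 14.32 in the BL lines, against 13.22 in SC-1 and 14.52 to 15.04 in the others.

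HLA class I genes had a median of 0.38, with 13 of 19 positive, and class II genes one of −0.25, with 14 of 19 negative, and in both lists 0 genes were outside the overlap. TAPBP, the peptide loading protein tapasin, had 9.97, 8.24 and 9.59 in the BL lines, against 7.71 in SC-1 and 10.95 to 11.82 in the others. HLA-DQB1, a class II chain that belongs to a family of near-identical genes and is uncertain for that reason, had 10.33 in Ramos, 13.63 in Raji and 14.23 in BL41, against 13.65 to 15.71 in the FL/GCB lines. RFXAP, a subunit of the factor that activates class II promoters, averaged 11.18 ± 0.61 in BL and 12.18 ± 0.53 in FL/GCB lines (SD, n = 3 and 5). Ramos was the low line for HLA-DQB1 and BL41 for RFXAP.

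Germinal center genes had a median of −0.24, with 19 of 27 negative and 0 outside the overlap, and genes of B-cell receptor signalling a median of −0.23, with 27 of 42 negative. IRF8, a transcription factor of germinal center B cells, had 12.82, 12.04 and 12.11 in Ramos, Raji and BL41, against 11.66 in SC-1 and 13.36 to 14.68 in the others. PTPRC, the phosphatase CD45, averaged 13.87 ± 0.88 in BL and 15.01 ± 0.55 in FL/GCB lines (SD, n = 3 and 5). In B-cell receptor signalling, CR2 and GRB2 (an adaptor protein) were above and MALT1 (a protease that activates NF-kB) was below all FL/GCB lines. BLK, a kinase of this pathway, depended on the element, with −0.45 at the brighter and −2.36 at the dimmer one. Among B-lineage transcription factors (median −0.01, 32 genes), ETS1 had 11.77, 10.51 and 10.21 in the BL lines, against 11.15 in SC-1 and 11.51 to 13.34 in the others.

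Adhesion and homing receptors had a median of 0.32, with 24 of 35 positive and 0 outside the overlap. CD58, the ligand by which T cells bind through CD2, had 13.66 in Ramos, 14.94 in Raji and 11.33 in BL41, against 10.54 in SC-1, 11.29 in K422, 8.82 in ROS-50, 8.01 in Sudhl4 and 11.50 in Sudhl6, so that BL41 was among the FL/GCB lines. ICAM3, an adhesion molecule, had 13.02, 7.27 and 13.19 in Ramos, Raji and BL41, against 12.93 to 15.27 in the FL/GCB lines, and Raji alone was low. B-cell surface antigens had a median of −0.09 (38 genes). SLAMF7 was, after CR2, the other surface antigen above all FL/GCB lines, with 11.04, 11.11 and 10.75 in the BL lines, against 7.99 in ROS-50 and 9.80 to 10.37 in the others. Its second element, with 1.02, had overlapping groups.

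Interferon-stimulated genes had a median of 0.03, with GBP2 above and IRF9 and IFI27 below all FL/GCB lines. IFIH1, the RNA sensor MDA5, had 14.47, 15.06 and 14.15 in the BL lines, against 13.17 in SC-1, 10.24 in K422, 14.39 in ROS-50, 11.41 in Sudhl4 and 7.44 in Sudhl6. Its level ranged more among the FL/GCB lines than between the groups. Among chromatin regulators (median 0.01, 30 genes), DNMT1, the maintenance DNA methyltransferase, had 17.23, 17.63 and 17.27 in Ramos, Raji and BL41, against 16.48 to 17.02 in the FL/GCB lines. MEN1, menin, had 12.36, 12.35 and 12.51, against 12.79 to 14.24. These small differences, 0.70 for DNMT1 and −0.88 for MEN1, separated the groups, with an SD of 0.22 in BL and 0.22 in FL/GCB lines for DNMT1 and of 0.09 in BL and 0.57 in FL/GCB lines for MEN1. In the candidate genes of the study (median 0.10, 29 genes), which were chosen there on arrays that include these, PTPN12 (a tyrosine phosphatase) and NR4A2 (a nuclear receptor) were above and PITHD1 was below all FL/GCB lines. PTPN12 had a difference of 1.34 with an interval of 0.28 to 2.40.

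**Figure D4:**
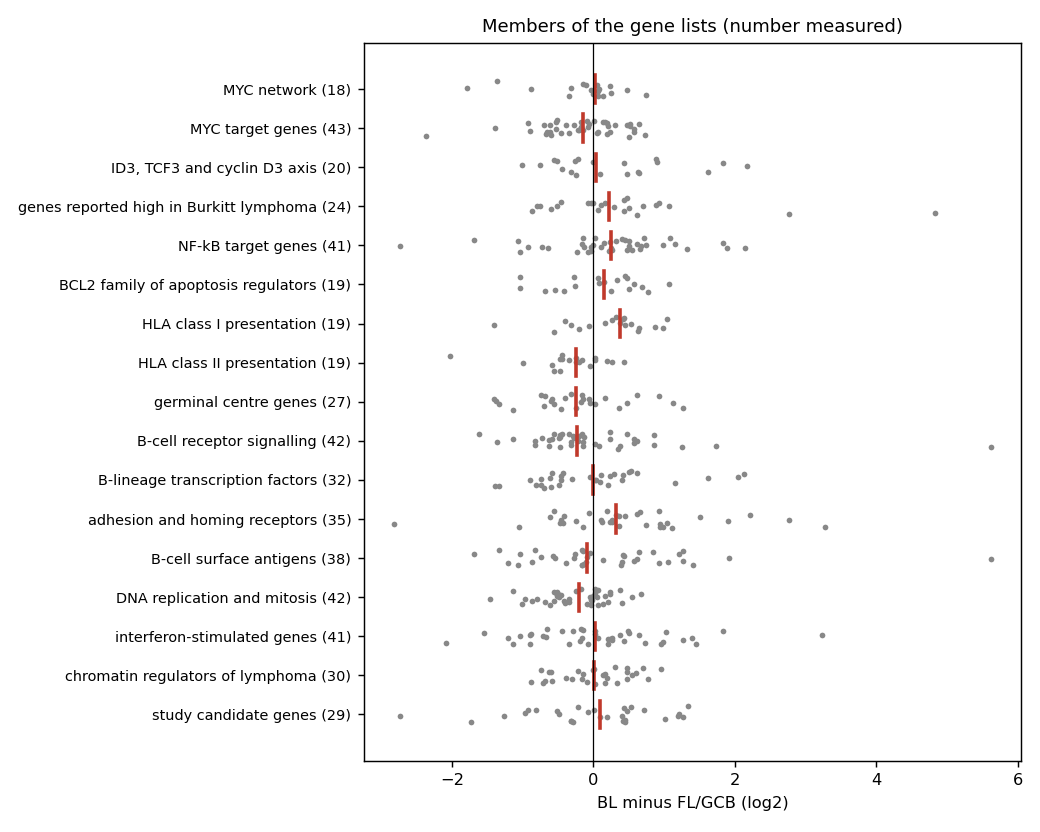
Each grey point is 1 measured gene of a list of lymphoma biology, placed by the mean of the BL lines minus the mean of the FL/GCB lines (log2, horizontal axis), with small vertical jitter; the red bar is the median of the list and the number measured is in brackets. Every median shown lies between −0.25 and 0.38, close to the 0 line, while single genes such as CR2 and PRKAR2B lie far from it.

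SC-1 resembled the BL lines in several of the genes above. This was not particular to SC-1. The untreated ABC line Ocily3 was at or near the BL level for JUNB (9.18), MAX (11.65), CDK2 (11.83) and PRKAR2B (15.65). It was not for IRF8 (14.88) and CXCR4 (14.19). The ABC lines differed among themselves, with JUNB at 13.63 in Ocily10 and 14.73 in HLY-1. On the first principal component of the 8 arrays, with 21.2% of the variance, the BL lines had scores of 37.8 to 47.8, against 110.4 for SC-1 and −87.8 to −29.0 for the other FL/GCB lines. SC-1 was on the side of the BL lines there but was the extreme line, not among them. The correlation over all elements, of arrays that share their normalization, was 0.920 to 0.928 among the BL lines, 0.899 to 0.930 between BL and FL/GCB lines and 0.889 to 0.917 among the FL/GCB lines. It was highest between BL41 and ROS-50, at 0.930. Without SC-1, limma called 2 elements higher in BL, of ENAH and CLEC2B, and 2 lower, of TMEM259 and TCEAL8. ENAH, a regulator of actin filaments, had 14.87 in Ramos, 13.56 in Raji and 14.63 in BL41, against 14.96 in SC-1 and 7.65 to 9.33 in the other 4 lines. TMEM259 had 8.50, 9.22 and 9.05 in those BL lines, against 8.53 in SC-1 and 12.27 to 13.15 in the others. SC-1 was at the BL level in both, which follows in part from their selection, as they passed only with SC-1 left out. Without Ramos, limma called 1 element higher, of RUNX1T1, and 1 lower, of CYB5A. CYB5A, cytochrome b5, had 17.40 in Ramos, 9.18 in Raji and 8.34 in BL41, against 15.71 to 17.39 in the FL/GCB lines, a difference of −5.14 with all lines. Ramos was thus at the FL/GCB level and the other BL lines were far below it. CYB5A was selected in the same way, as it passed only with Ramos left out. ENAH, TMEM259 and CYB5A were named after their values were seen.

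Markers of B cells were above the array median in all lines more often than those of the other cell types. Of 11 measured B-cell markers, 10 were above the array median in all 8 lines, and the one that was not, PAX5, had 7.86 to 9.22 in BL and 8.08 to 10.55 in FL/GCB lines. Markers of T cells, NK cells, myeloid, epithelial and stromal cells were above it in all 8 lines for 1 of 12, 1 of 9, 0 of 10, 1 of 9 and 1 of 10 genes, and the median difference of these lists was between −0.09 and 0.24. The B-cell markers had a median difference of −0.29, with 2 of 11 positive. Their summed signal was 19.90 to 20.54 in BL and 19.75 to 21.18 in FL/GCB lines (log2). That of the T-cell markers was 13.24 to 15.96 in BL and 13.88 to 17.13 in FL/GCB lines. Stromal and endothelial markers summed to 13.91 to 16.33 in BL and 13.74 to 15.93 in FL/GCB lines. Both sums lay below that of the B-cell markers in every line. Myeloid markers summed to 13.17 to 14.80 in BL and 13.16 to 13.31 in FL/GCB lines. NK cell markers summed to 13.35 to 14.44 in BL and 13.46 to 14.13 in FL/GCB lines, and epithelial markers to 13.80 to 14.36 in BL and 13.47 to 14.13 in FL/GCB lines. Plasma cell markers were above the array median in all 8 lines for 5 of 9 genes. They had a median difference of 1.16, with 7 of 9 positive and SLAMF7 outside the overlap. They summed to 17.20 to 18.28 in BL and 16.96 to 17.75 in FL/GCB lines. Their part in the results was not tested. CD3E and COL1A2 were above all FL/GCB lines and KRT7 was below them, each at a level under the array median of every line.

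The same lines after aza and TSA gave a second reading of the largest differences, as a description, since each culture is a sister of an untreated one. The difference had the same sign in 12 of 12 genes higher in untreated BL and in 11 of 12 lower ones, the exception being KRTAP19-6 with 1.29. The treated lines did not overlap, in the same direction, for 8 and 3 of these genes. Over all genes, which were not selected, the treated groups did not overlap for 1.9% above and 1.68% below. The genes named were chosen for separation in the untreated sister cultures, so their likeness after treatment follows in part from that choice. The share of all genes that kept their sign was not analysed here. CR2 was one of the 8, with 13.98, 14.95 and 13.59 in treated Ramos, Raji and BL41, against 8.27 in SC-1, 9.34 in K422, 10.59 in ROS-50, 11.65 in Sudhl4 and 9.50 in Sudhl6. RUNX1T1 was not, as its treated groups overlapped with a difference of 2.08, and neither were CLEC2B, FAM241A and ARL15. TCEAL8, RNF135 and NRSN2 were the 3 that lay below, with −2.45, −2.74 and −1.91. The 3 untreated ABC lines enter only the alternative fit with all 11 untreated arrays. In them, CR2 was at 11.51 to 11.70, LY75 at 11.99 to 14.13, RUNX1T1 at 7.78 to 9.19 and TCEAL8 at 13.69 to 14.88. LY75 was thus in the BL range or above it in these lines, and RUNX1T1 in the FL/GCB range.

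**Figure D5:**
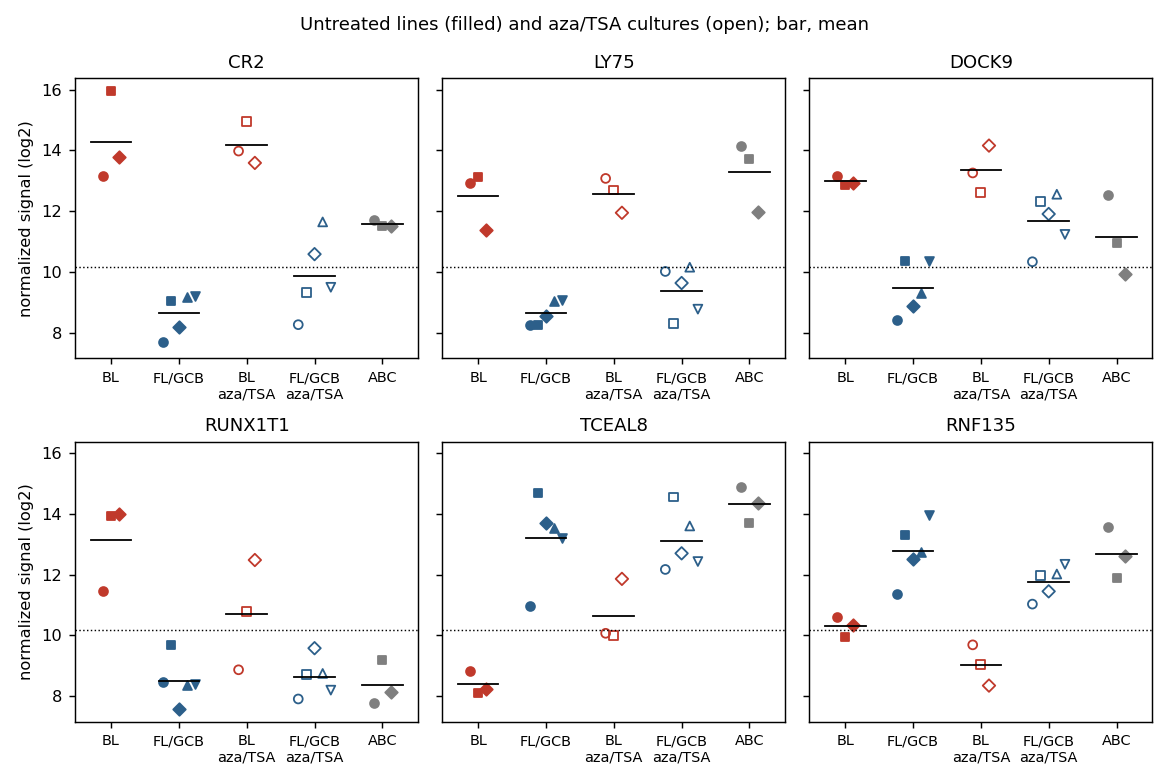
Normalized signal (log2, vertical axis) of 6 genes in untreated lines (filled) and in cultures with aza and TSA (open), with a bar for the mean of each group and the array median of 10.18 dotted; ABC lines are grey. CR2 and LY75 of BL lie above FL/GCB with and without the drugs, while RUNX1T1 of treated BL lines overlaps with FL/GCB.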

How the data were processed

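Total RNA of 11 cell lines was measured by the authors on 22 Applied Biosystems arrays, of which the 8 untreated arrays of BL, FL and GCB lines were compared here. The authors deposited raw signals, which are intensity values, and a table of log2 values, which equals the log2 of the quantile-normalized signals to 5.0e-09. The authors read the signals by chemiluminescence on the manufacturer's analyzer. Of the elements, 17073 have 1 gene symbol in the platform annotation, 139 have several and 15666 are unnamed here; the brightest element over the 8 arrays stands for a gene. BL minus FL/GCB was fitted by lmFit and eBayes of limma 3.58.1 under R 4.3.3, two-sided, with Benjamini-Hochberg adjustment over 32878 elements and a threshold of 0.05, after a test on simulated data. The arrays give no counts, and their number limits the precision. No source says that the cultures of a type were repeated, so p-values measure the spread between lines.

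Named are the 12 genes per direction with the largest difference among genes past the threshold or, since none passed, with an unadjusted p under 0.01, with groups that do not overlap and levels above the array median in every line of the higher group; 17 genes of lymphoma biology, of which 14 were measured; and, per list, the 2 genes with the smallest p. Members and lists were chosen with earlier results of these data known. Genes used to tell the sex of a donor were not named. Some genes and 1 of the lists are not reported here. Promoters came from RefSeq (GRCh38.p14). Alternatives were other normalizations, a filter and a floor on dim elements, other variance models, all 11 untreated arrays, FL or GCB lines alone, the mean over elements, and each line left out in turn.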

Additional observations from a re-analysis of the deposited data

Results flagged for a closer look

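Of the 80 named genes, 9 had an FL/GCB line far from the other 4, by the gap to the nearest line over the range. The nominal rate of this rule is about 1 in 20 for lines of 1 spread. Many of these genes were chosen by p or by non-overlap, and the share over all genes was not analysed here. The count of 9 therefore cannot be read as an excess. SC-1 was the low line in 4 of them, with 11.45 for MAX (13.75 to 14.25 in the others), 13.22 for BAX (14.52 to 15.04), 7.71 for TAPBP (10.95 to 11.82) and 11.39 for CDK2 (13.83 to 14.68). ROS-50 stood apart in 3, high for LRP3 at 12.80 (11.33 to 11.69) and for GNLY, a protein of cytotoxic granules, at 10.59 (7.62 to 8.44), and low for SLAMF7 at 7.99 (9.80 to 10.37). K422 was low for TCL1A at 10.51 (15.16 to 17.02), and Sudhl6 was high for NRSN2 at 12.75 (10.88 to 11.26). All values are log2 signals, and groups of 3 such as the BL lines were not looked at in this way.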

How the results depend on the processing

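The count of elements higher in BL was 0 in the main analysis and 1 under median scaling, 1 without normalization and 1 with all 11 untreated arrays in the fit. The element was that of CR2 each time (limma adjusted p = 0.0444, 0.0283 and 0.0159; differences 5.74, 6.05 and 5.62). Without normalization the median of all elements was shifted by 0.34. With 1 line left out, the counts were 0 to 2 higher and 0 to 2 lower, with calls only without Ramos and without SC-1; elements at an unadjusted p under 0.05 were 2517 without SC-1, against 1487 with all lines. They were 2590 against GCB lines only and 831 with the filter on dim elements, which left 17710 elements. The smallest limma adjusted p ranged from 0.0159 to 0.322 over the alternatives that leave out no single line, and from 0.00273 to 0.315 with 1 line left out. Of 805 gene differences under alternatives other than leaving out a line, 794 kept their sign and side of the threshold. The signs that turned were those of SMARCA4 (−0.12), TCL1A (−0.18) and MKI67 (−0.37) against GCB lines only, of CD44 (0.14 without normalization and 0.14 against FL lines only), and of CD74 (0.03 under median scaling, 0.33 without normalization and 0.53 against FL lines only). With each line left out, the difference ranged from −0.24 to 0.56 for MYC, −0.29 to 1.02 for ID3, −0.07 to 2.02 for TCL1A, −0.82 to 0.31 for CD44, −0.31 to 0.22 for CD74 and −0.17 to 0.28 for MKI67. Signs that turned within these ranges were those of MYC (−0.24 without Ramos, −0.13 without Raji, −0.01 without SC-1), ID3 (−0.29 without Ramos), TCL1A (−0.07 without K422), CD44 (0.31 without Raji, 0.08 without BL41, 0.06 without Sudhl6, 0.01 without ROS-50), CD74 (0.09 without Ramos, 0.06 without BL41, 0.22 without Sudhl6, 0.11 without Sudhl4) and MKI67 (−0.17 without SC-1, −0.03 without K422). The cause was not tested. Of 900 counts of list members called, 6 moved to 1, all through CR2. No paired analysis was possible because the groups compared are different cell lines. The 95% interval, with a median of 1.04 to either side, limits what could be detected, and elements below the array median, such as CR2 in FL/GCB lines, give no firm lower level.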
